A study of Mus musculus with 6 samples.

Results

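Aminoacyl-tRNA synthetases are the enzymes that join each amino acid to its transfer RNA, the step that turns the genetic code into protein. The genes described here are 36 synthetases, of 23962 genes in the deposited table, taken by gene symbol. Of the 36, 20 code for cytosolic enzymes and 16 for mitochondrial ones, whose symbols end in 2. All 36 were found, and all 36 passed the filter on low values, so that they are 36 of the 11214 genes tested.

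A synthetase recognises 1 amino acid and the matching transfer RNAs, activates the amino acid with ATP and transfers it to the end of the transfer RNA. Most mitochondrial enzymes are made from separate nuclear genes and imported, while Kars and Gars each supply both compartments from 1 gene. Several cytosolic enzymes sit together in the multisynthetase complex, and uncharged transfer RNA is the signal that activates the kinase GCN2 and, through it, the transcription factor ATF4. T cells that are activated through the antigen receptor grow and increase protein synthesis, which draws on charged transfer RNA.

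The libraries come from CD4 T cells of C57BL/6 mice, taken from spleens and lymph nodes by flow sorting. Wild type (WT) mice were set against YAP cKO mice, which carry floxed Yap1 alleles and Cre under the CD4 promoter, a driver that is not limited to regulatory T cells. In each genotype there is 1 library of naive CD4 T cells (CD62L+ CD25-), 1 of freshly sorted natural regulatory T cells (nTregs, CD25 high) and 1 of nTregs stimulated with 100 U/ml of IL-2 and 2 µg/ml each of plate-bound anti-CD3 and soluble anti-CD28. The length of stimulation is 24 h by the treatment protocol but 48 h by the extraction protocol, and the labels do not settle which holds. Fresh cells were frozen directly after the sort, so stimulated nTregs differ from fresh ones by time in culture and IL-2 as well as by receptor stimulation, and these cannot be told apart. No group has a replicate and the labels do not say how many mice stand behind a library, so p-values rest on the spread between libraries of the other genotype or population, not between mice.

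Yap1, the targeted gene, was listed at 0 FPKM (sequenced fragments per length of transcript, scaled per library) in the naive and fresh nTreg libraries of both genotypes. In stimulated nTregs it was 0.169 FPKM in the WT library and 0.235 in the cKO library, so its RNA gave no check of the genotype labels. Foxp3, the defining factor of regulatory T cells, was 2.98 and 3.30 FPKM in the naive libraries, WT first, against 46.6 and 45.9 in the fresh and 56.9 and 57.8 in the stimulated nTreg libraries. Summed over 5 B cell genes the level was 1.74 and 1.76 FPKM for the naive, 13.0 and 12.1 for the fresh and 6.06 and 3.44 for the stimulated libraries, most of the nTreg level being Cd79b, while Pax5 stayed at or below 0.130; the part of other cells in the results was not tested. The FPKM sums of the libraries ran from 534179 to 968819 and were lowest in the stimulated nTregs. The short RNAs Rmrp and Rpph1 alone held 15.2% to 17.0% of the sum in the naive and fresh libraries and 5.58% and 8.23% in the WT and cKO stimulated ones. Setting the libraries to 1 sum moved the median stimulated-minus-fresh difference of all genes from -0.05 to 0.46 on the log2 scale, and differences of the synthetases are also given relative to that median. Read from the spacing of low values, the synthetase values, Lars2 left aside, stood on an estimated 29.0 fragments (Sars2, WT stimulated) to 4331 (Eprs, cKO stimulated). The median over all synthetases and libraries, Lars2 included, was 495.

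By median, cytosolic synthetases were the more abundant group in each library, and FPKM allows that comparison since it is per length of transcript. Their median was 30.0 FPKM in both naive libraries, with Cars (cysteine) lowest at 11.1 and 11.2 and Dars (aspartate) highest at 73.1 and 71.5, WT first. The mitochondrial enzymes had a median of 10.4 and 11.6 FPKM in the same libraries, from Pars2 (proline) at 2.27 and 4.06 to Iars2 (isoleucine) at 30.1 in both. Summed over the group, cytosolic enzymes stood at 659 (WT) and 670 (cKO) FPKM in the naive pair, 602 and 619 in the fresh nTreg pair and 1164 and 1245 in the stimulated pair. Mitochondrial enzymes without Lars2 stood at 171 and 182, 147 and 143, and 139 and 140 FPKM. With Lars2 they stood at 182 and 192, 1432 and 698, and 1220 and 723 FPKM. The ratio of the sums without Lars2 was 3.85 and 3.68 for naive cells, 4.11 and 4.33 for fresh nTregs and 8.39 and 8.92 after stimulation. Both stimulated libraries thus lay above the other 4 in this ratio, which no scaling of a whole library can alter. It does turn on leaving out Lars2. With Lars2 included, the mitochondrial sum exceeded the cytosolic one in both fresh libraries and in the WT stimulated one.

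**Figure D1:**
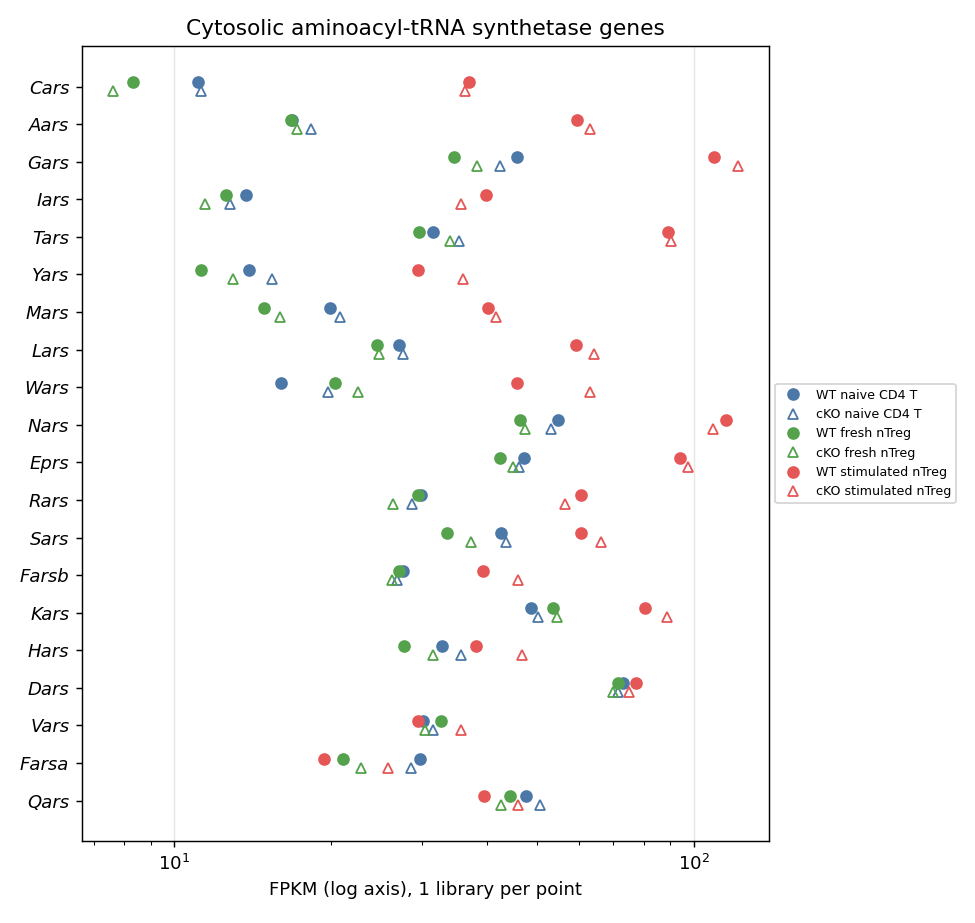
FPKM of the 20 cytosolic synthetase genes on a log axis, ordered by their stimulated-minus-fresh difference. Filled circles are WT and open triangles cKO libraries, 1 library per point. The red stimulated points lie to the right of the green fresh points in both genotypes from Cars down to Hars (16 genes), while for Vars, Farsa and Qars they overlap.

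Most cytosolic genes rose with stimulation. Against fresh nTregs, 16 of 20 cytosolic synthetases rose in stimulated nTregs, none fell and 4 were not called (limma on log2(FPKM + 1), adjusted p under 0.05), where 49.9% of all genes tested were called, 22.6% as risen and 27.3% as fallen. The median difference over the 20 was 1.18 on the log2 scale, beside -0.05 over all genes tested. All 20 lay above the median of all genes. In bulk RNA a change in the make-up of the sorted cells and a change in RNA per cell cannot be told apart, and this holds for every result here.

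Cars, the cysteine enzyme, had the largest rise. It stood at 8.32 and 7.63 FPKM in fresh nTregs and at 36.9 and 36.3 in stimulated nTregs, WT first, and at 11.1 and 11.2 in naive cells. The 2 stimulated libraries lay above all 4 others, a 4.59-fold difference of the stimulated and fresh means (log2 difference 2.07, SE 0.09, adjusted p = 7.46e-05). Aars (alanine) followed, with 16.8 and 17.2 FPKM fresh against 59.7 and 63.1 stimulated, and rose 3.61-fold. Gars (glycine) stood at 34.5 and 38.3 FPKM fresh and 109 and 121 stimulated, a 3.17-fold rise to the highest level of any cytosolic synthetase in the cKO stimulated library. Iars (isoleucine) rose 3.14-fold, from 12.6 and 11.5 to 39.9 and 35.7 FPKM. In each of these genes the genotypes differed by far less than fresh and stimulated cells did.

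A middle group rose by between 2.10-fold and 2.83-fold. It holds Tars (threonine, 2.83-fold), Yars (tyrosine, 2.70-fold), Mars (methionine, 2.65-fold), Wars (tryptophan, 2.54-fold), Lars (leucine, 2.51-fold), Nars (asparagine, 2.40-fold), Eprs (2.20-fold) and Rars (arginine, 2.10-fold). Eprs carries the glutamate and proline enzymes in 1 protein, and its level went from 42.3 and 44.9 FPKM fresh to 94.1 and 97.5 stimulated. Nars reached the highest level in the WT stimulated library, at 115 FPKM, from 46.2 in the WT fresh one. The smallest calls were Sars (serine, 1.80-fold), Farsb (the beta subunit of the phenylalanine enzyme, 1.60-fold), Kars (lysine, 1.57-fold) and Hars (histidine, 1.43-fold). Hars, with 27.7 and 31.5 FPKM fresh and 38.1 and 46.6 stimulated, was the one of the 16 whose call was lost when the cKO fresh library was left out.

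Dars, Vars, Farsa and Qars were not called with the deposited scaling. Each rose when libraries were set to an equal FPKM sum, as did 58.7% of all genes tested. With the deposited scaling these genes lay between 0.02 (Qars) and 0.15 (Dars) above the median of all genes. Dars was 71.5 and 70.0 FPKM fresh and 77.4 and 75.1 stimulated, a log2 difference of 0.11 (SE 0.07, adjusted p = 0.249). Vars (valine) went from 32.7 and 30.4 FPKM to 29.4 and 35.6, so that the stimulated libraries lay on both sides of the fresh ones. Qars (glutamine) did the same, with 44.2 and 42.6 FPKM fresh against 39.5 and 45.9 stimulated, and its log2 difference of -0.03 was 0.54 under equal FPKM sums. Farsa, the alpha subunit of the phenylalanine enzyme, stood at 21.1 and 22.8 FPKM fresh and at 19.4 and 25.7 stimulated (log2 difference 0.03, SE 0.12, adjusted p = 0.875). The beta subunit Farsb, its partner in 1 tetramer, was 27.1 and 26.3 FPKM fresh and 39.3 and 45.8 stimulated (log2 difference 0.65, SE 0.10, adjusted p = 0.0030). Summed from rows with a deposited symbol only, Farsb was 11.2 and 15.99 FPKM fresh and 13.9 and 32.3 stimulated, a value chosen after seeing the data, and its log2 difference was then 0.63. The difference between the subunits was not tested.

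The uncalled genes lay both inside and outside the multisynthetase complex and in both fold families. Of 8 enzymes of the multisynthetase complex, 6 rose (median log2 difference 1.08), with Dars and Qars uncalled. Of the 12 outside it, 10 rose (median 1.27), with Vars and Farsa uncalled. Synthetases fall into 2 families by the fold of their catalytic domain, and 8 of 10 cytosolic enzymes rose in each, with medians of 1.29 for class I and 0.74 for class II. Eprs, with its glutamate and proline enzymes, was counted in class I only. The 3 scaffold proteins of the complex were read beside its enzymes. Aimp2 went from 9.31 and 9.70 to 20.2 and 22.5 FPKM and rose by 1.09 on the log2 scale (adjusted p = 0.000514), and Eef1e1 rose by 0.85 (adjusted p = 0.0020). Aimp1 was 50.8 and 53.1 FPKM fresh and 56.6 and 57.4 stimulated and was not called (log2 difference 0.13, adjusted p = 0.200).

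Promoter windows were searched since ATF4 is known to bind composite C/EBP-ATF elements at amino acid genes. Stretches are shown for the 5 cytosolic genes in which the letters of this element were found, and for 3 uncalled genes. The 5 risen cytosolic genes with a window but without a match are not shown, so the display cannot relate the element to the rise. RefSeq windows of GRCm38.p6, from 250 bases before to 50 after the annotated start, were matched by symbol for 27 of the 36 genes. Capitals mark TGATGNAA on either strand, the letters searched for this element, and the stretches end 30 bases into the transcript. The Aars stretch is chr8:111033712-111033871 (plus strand), Gars chr6:55037951-55038030 (plus), Iars chr13:49682080-49682159 (plus), Tars chr15:11399629-11399708 (minus) and Yars chr4:129189853-129189932 (plus). The uncalled genes are Dars, chr1:128417387-128417466 (minus), Farsa, chr8:84856936-84857015 (plus), and Qars, chr9:108507955-108508034 (plus).
Aars: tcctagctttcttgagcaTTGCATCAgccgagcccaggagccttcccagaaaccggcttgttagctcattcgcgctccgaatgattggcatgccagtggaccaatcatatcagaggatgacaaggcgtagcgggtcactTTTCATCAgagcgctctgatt
Gars: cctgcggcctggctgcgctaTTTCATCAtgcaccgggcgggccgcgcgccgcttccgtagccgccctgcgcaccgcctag
Iars: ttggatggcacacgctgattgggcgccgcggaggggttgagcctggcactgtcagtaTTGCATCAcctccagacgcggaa
Tars: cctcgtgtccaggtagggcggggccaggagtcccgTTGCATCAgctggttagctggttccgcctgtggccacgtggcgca
Yars: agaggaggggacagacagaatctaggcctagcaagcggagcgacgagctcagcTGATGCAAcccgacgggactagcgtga
Dars: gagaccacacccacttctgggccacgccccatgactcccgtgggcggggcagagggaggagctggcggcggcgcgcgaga
Farsa: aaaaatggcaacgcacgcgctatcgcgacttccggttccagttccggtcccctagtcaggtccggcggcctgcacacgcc
Qars: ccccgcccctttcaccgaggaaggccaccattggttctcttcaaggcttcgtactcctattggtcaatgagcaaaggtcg

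The element's letters were present in 5 of 13 cytosolic genes with a window and in 0 of 14 mitochondrial ones, against 3.97% of all 32851 windows. The 5 carriers were Aars, Gars, Iars, Tars and Yars, which rose by 1.36 to 1.79 on the log2 scale. Counted from the first transcribed base as 0, the match began at -112 and again at 9 in Aars, at -30 in Gars, 7 in Iars, -15 in Tars and 3 in Yars. The 8 cytosolic genes without a match differed by -0.03 to 1.35, and 5 of them rose. Cars, whose rise of 2.07 was the largest, is among the cytosolic genes without a window and enters neither range. The E-box CACGTG, bound by Myc among others, was present in 4 of 13 cytosolic genes (Aars, Farsb, Iars and Tars) and 1 of 14 mitochondrial ones (Ears2), against 7.15% of all windows. CATTCC, a core of sites for the TEAD factors through which YAP acts, was present in 2 of 13 (Aars and Dars) and 4 of 14 (Ears2, Tars2, Wars2 and Yars2), against 14.7% of all windows. None of these matches overlap each other. A match describes letters in a window and is no evidence of binding, and no test was made of the matches.

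Of the 16 mitochondrial synthetases, 2 rose in stimulated against fresh nTregs, 3 fell and 11 were not called, where 22.6% of all genes rose and 27.3% fell, with a median log2 difference of -0.08 (-0.07 without Lars2) beside -0.05 over all genes. Relative to the median of all genes their median was -0.03 as deposited and -0.01 under equal FPKM sums, where 9 rose and 0 fell, beside 58.7% of all genes risen and 9.14% fallen. Rars2 (arginine) went from 10.9 and 12.7 FPKM to 19.6 and 18.3 and rose 1.61-fold (log2 difference 0.64, SE 0.14, adjusted p = 0.0111). Pars2 went from 2.26 and 1.71 FPKM to 3.99 and 4.29, a log2 rise of 0.79 (SE 0.22, adjusted p = 0.0277), which was 0.21 when summed from rows with a deposited symbol only. With all transcripts summed, the 2 stimulated libraries lay above the 2 fresh ones for both genes. From rows with a deposited symbol only, Pars2 was 2.246 (WT) and 1.701 (cKO) FPKM fresh and 1.785 and 3.194 stimulated. The Rars2 call was lost without either fresh library and the Pars2 call without the cKO fresh or either stimulated library.

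Ears2 (glutamate) had the largest fall, from 6.59 and 5.65 FPKM to 2.88 and 3.34 (log2 difference -0.79, SE 0.13, adjusted p = 0.0048). Cars2, the mitochondrial counterpart of the gene with the largest rise, went from 11.2 and 10.5 FPKM to 5.91 and 7.03 (log2 difference -0.67, adjusted p = 0.0052). Fars2 (phenylalanine) went from 15.3 and 16.9 to 12.2 and 11.7 FPKM and fell by 0.40. Under equal FPKM sums none of the 3 was called, with Ears2 at -0.33 and Cars2 at -0.16, and Fars2 turned to 0.14. Without the WT fresh library the calls of all 3 were also lost, and that of Fars2 without the cKO fresh or cKO stimulated library too. Aars2 (alanine), between Cars2 and Fars2 in size of difference, stood at 2.91 and 3.59 FPKM fresh and 1.60 and 2.41 stimulated and was not called (log2 difference -0.51, adjusted p = 0.0616), though it was called without either naive library, without the cKO stimulated library and in a fit of the 4 nTreg libraries alone. The 2 most abundant apart from Lars2, Iars2 at 23.8 and 24.7 against 25.4 and 26.1 FPKM and Tars2 (threonine) at 23.8 and 22.8 against 23.6 and 22.7, overlapped or nearly so between fresh and stimulated cells. Mitochondria charge glutamine by another route, in which Ears2 misacylates the transfer RNA and an amidotransferase of Gatb, Gatc and Qrsl1 completes it. Gatc rose by 0.61 and Qrsl1 fell by 0.49, while Gatb, named to complete the enzyme, was 0.26 and not called (adjusted p = 0.194).

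**Figure D2:**
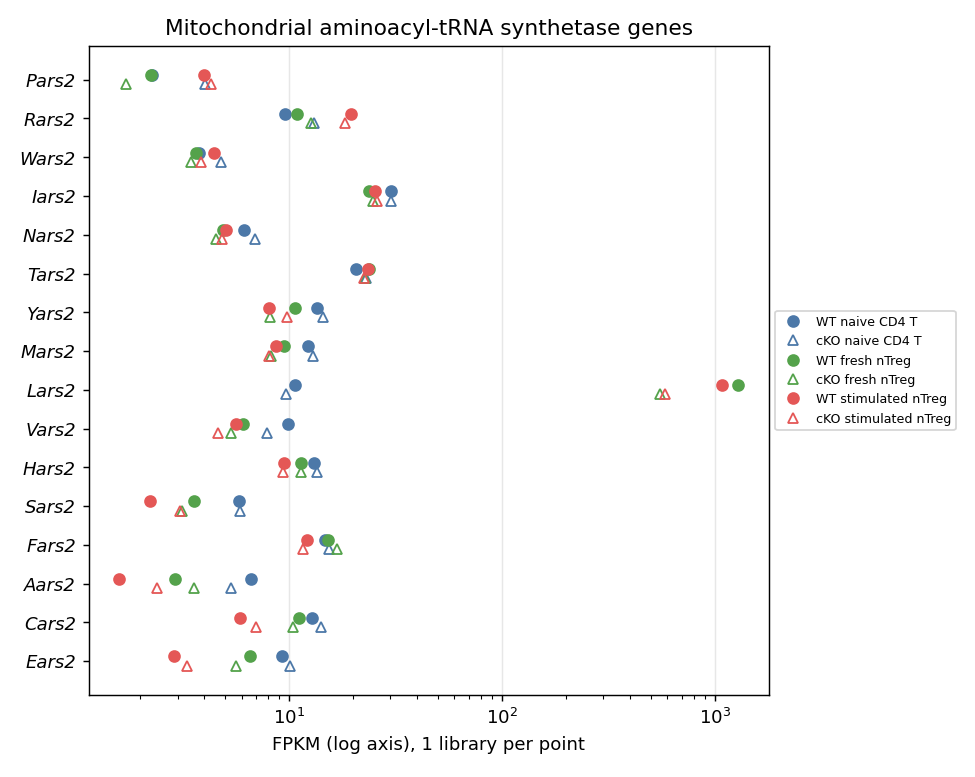
FPKM of the 16 mitochondrial synthetase genes on a log axis, ordered by their stimulated-minus-fresh difference, with symbols as for the cytosolic genes (filled WT, open cKO, 1 library per point). Most points lie between 2 and 30 FPKM, and the Lars2 points of the 4 nTreg libraries lie alone between 555 and 1286.

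Other genes of transfer RNA metabolism and of the amino acid response were read in the same fit, from lists chosen with results of these data known, where 22.6% of all genes rose and 27.3% fell. Of 11 further charging genes 2 rose and 1 fell, with Gatc highest and Qrsl1 lowest. Of 6 cytosolic elongation genes 2 rose (Eef1g by 0.72 and Eif5a by 0.67), and of 10 mitochondrial translation factors 3 rose, from Gfm1 at 0.40 to the recycling factor Mrrf at 1.25. Of 19 transfer RNA processing genes tested of 20 listed, 8 rose and 1 fell, from the RNase P subunit Rpp38 at 1.55 to Pop7 at -0.36. Of 20 modification genes 11 rose, from Elp3 at 0.39 to the pseudouridine synthase Pus7 at 1.05. RNA polymerase III and its factors, which make transfer RNA, gave 6 rises and 4 falls of 20, a share of calls near the 49.9% of all genes, with Polr3gl lowest at -0.80.

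Amino acid transporters and ATF4 target genes moved further than the synthetases at their extremes. Of 9 transporters tested of 10 listed, 6 rose and 1 fell, where 22.6% of all genes rose and 27.3% fell. Slc1a4, a carrier of neutral amino acids, went from 0.304 and 0.380 FPKM to 8.70 and 8.97 (log2 difference 2.87), and Slc38a2 fell by 0.98. Of 14 genes of the GCN2 and ATF4 response 8 rose and 2 fell, beside the same shares of all genes. Asns, asparagine synthetase and no transfer RNA enzyme, stood at 1.90 and 2.44 FPKM fresh and 57.5 and 67.3 stimulated (log2 difference 4.32, adjusted p = 5.55e-05). Ppp1r15a, which reverses the phosphorylation set by GCN2, went from 379 and 359 FPKM to 11.5 and 11.1 and fell by 4.91. Atf4 RNA itself, which is controlled mainly in translation, went from 264.7 and 235.5 FPKM to 162 and 165 and fell by 0.61 (named after its value was seen).

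Between fresh nTregs and naive cells 11 of 36 synthetases were called, a share near the 31.3% of all genes. Between stimulated and fresh nTregs 21 were called, where 49.9% of all genes were. With the deposited scaling 10 of 36 synthetases were lower in nTregs and 1, Lars2, was higher, where 31.3% of all genes were called, 16.5% as risen and 14.8% as fallen. The cytosolic median was -0.14 and the mitochondrial median -0.35 (-0.40 without Lars2), beside -0.02 over all genes. Of 20 cytosolic genes Cars fell by 0.44, Mars by 0.38 and Sars by 0.28, and none rose. Of 16 mitochondrial genes 7 fell: Aars2, Sars2, Ears2, Vars2, Yars2, Mars2 and Iars2. Aars2 had the largest fall, from 6.64 and 5.38 FPKM in naive cells to 2.91 and 3.59 in fresh nTregs (log2 difference -0.72, SE 0.18, adjusted p = 0.0307). Sars2 (serine) went from 5.81 and 5.93 to 3.59 and 3.16 FPKM and fell by 0.65, and Vars2 (valine) went from 9.95 and 7.88 to 6.12 and 5.34 and fell by 0.55.

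These falls depended on the scaling and on single libraries. Under equal FPKM sums none of the 10 was called, and Kars and Wars rose, where 24.5% of all genes rose and 6.02% fell. Leaving out the WT naive or the cKO fresh library kept 1 of the 11 calls, and leaving out the cKO naive or the WT fresh library kept 2, Lars2 being among them each time. Relative to the median of all genes, a value that a scaling of whole libraries leaves nearly fixed by construction, the mitochondrial median was -0.33 and the cytosolic median -0.12. In the ratio of cytosolic to mitochondrial sums without Lars2, the 2 fresh nTreg libraries, at 4.11 and 4.33, lay above the 2 naive ones, at 3.85 and 3.68. With Lars2 included the order was reversed, the mitochondrial sum exceeding the cytosolic one in both fresh libraries and in neither naive one.

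**Figure D3:**
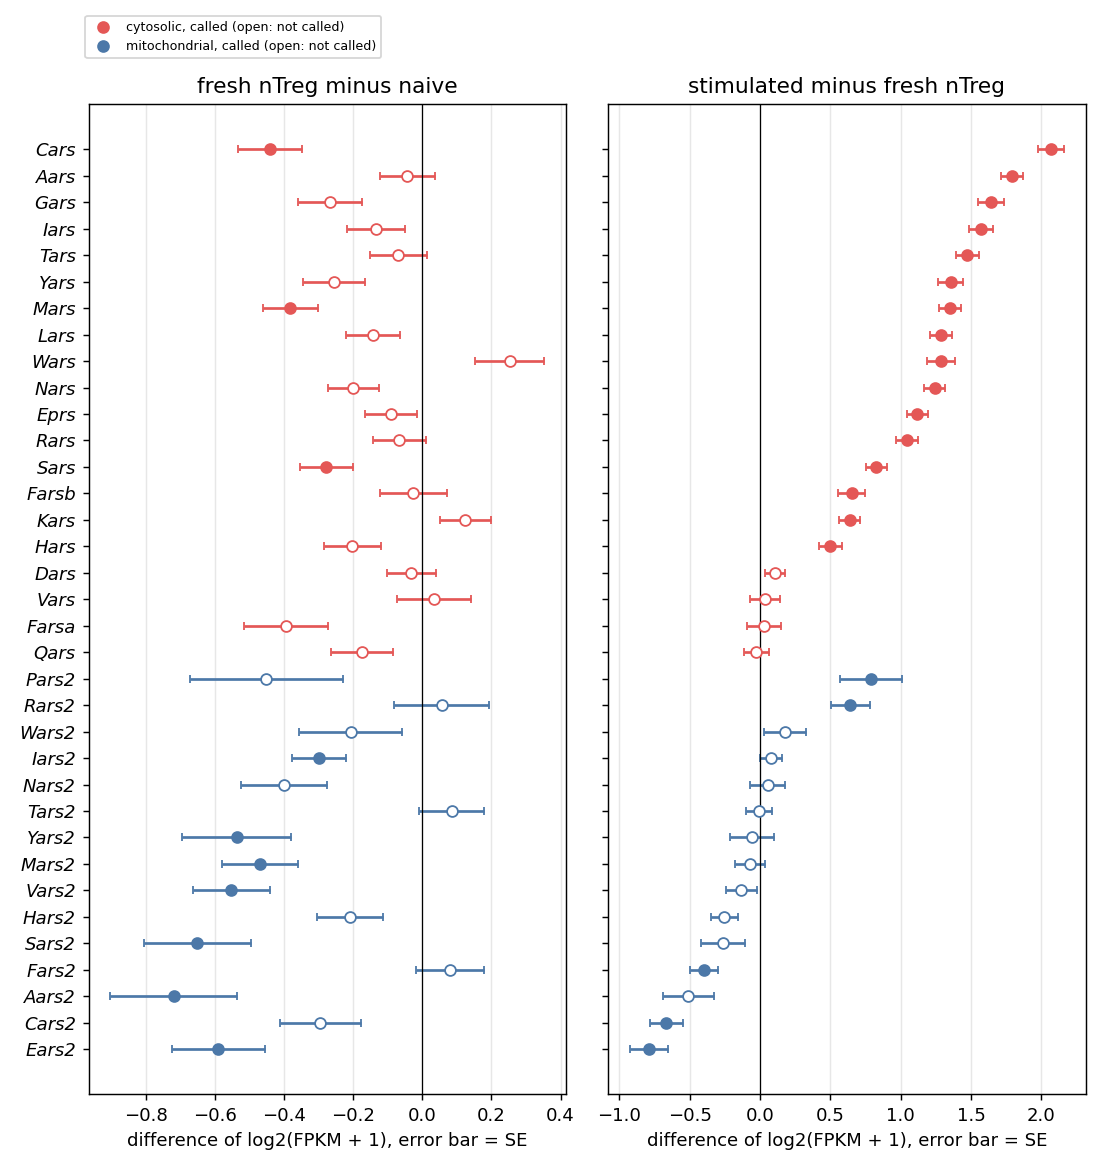
Difference of log2(FPKM + 1) with its SE from the fit over all 6 libraries, for 35 synthetases (Lars2, at 6.24 on the left, is left out for scale). Filled points were called with the deposited scaling. On the right the red cytosolic points reach 2.07 and 16 of 20 are filled, while the blue mitochondrial points scatter around 0. On the left most points lie below 0. With libraries set to an equal FPKM sum, the calls of falls on the left are lost and Fars2 on the right turns positive.

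Lars2, the mitochondrial leucine enzyme (GRCm38 chromosome 9, 123366927 to 123462675), stood apart from every other synthetase. It was 10.7 and 9.74 FPKM in naive cells, among its mitochondrial peers, and 1286 and 555 in fresh and 1082 and 584 in stimulated nTregs, WT first. The 4 nTreg libraries do not overlap with the naive ones, and the WT libraries were the higher of each nTreg pair. The rise from naive to fresh nTregs was 6.24 on the log2 scale (SE 0.24, adjusted p = 3.89e-05), rank 2 of 11214 genes ordered from the largest rise to the largest fall. Between fresh and stimulated nTregs Lars2 differed by -0.09 (SE 0.24, adjusted p = 0.777). Its level in nTregs exceeded that of the next mitochondrial enzyme in each library, at most 26.1 FPKM (Iars2), by over an order of magnitude.

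Ribosomal RNA and shared sequence were read beside Lars2. Rn45s, the ribosomal RNA precursor, was 2058 and 2279 FPKM for naive cells, 4225 and 2799 for fresh nTregs and 1393 and 1651 after stimulation, so it was highest in the library in which Lars2 was highest, while in stimulated nTregs it lay below its naive level. The Lars2 transcript in the table is 3894 bases long, and its coding part ends at base 2905. Between bases 3163 and 3349, in the part after the stop codon, it matches 2 other annotated transcripts. One is AA474408, with 97 bases at 94.8% and 50 bases at 96.0% identity, and the other is the antisense transcript Gm15564, with 72 bases at 98.6%. Neither of these transcripts is a row of the table used here. A single FPKM per transcript does not show where on it the fragments lie, and the part of this shared sequence and of ribosomal RNA in the Lars2 value was not tested.

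**Figure D4:**
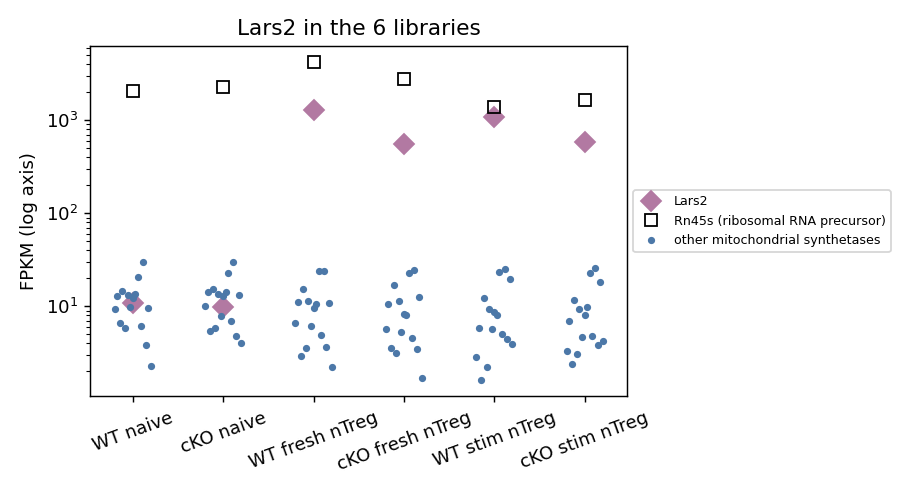
FPKM on a log axis of Lars2 (diamonds), of the ribosomal RNA precursor Rn45s (open squares) and of the other 15 mitochondrial synthetases (dots) in each of the 6 libraries. Lars2 lies among the dots in the naive libraries, at 10.7 and 9.74 FPKM, and above all of them in the 4 nTreg libraries, at 555 to 1286.

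Between genotypes no synthetase was called. Over the 3 populations 0 of 36 differed between YAP cKO and WT (limma, adjusted p under 0.05), where 0.375% of all genes were called, and 5 had an unadjusted p under 0.05, among 1345 of 11214 genes. Those 5 were Wars, Hars and Yars, higher in cKO by 0.30, 0.19 and 0.20 on the log2 scale, and Lars2 and Vars2, at -0.74 and -0.24, named after their values were seen. Lars2 (adjusted p = 0.256) was called when the WT naive library was left out (-1.05, adjusted p = 0.0403) or the cKO naive library (-1.05, adjusted p = 0.0412), where the naive pair no longer enters the genotype term. The cytosolic median was 0.07 and the mitochondrial median 0.02, beside 0.01 over all genes. Directions between genotypes rest on the column names, in which the second genotype carries an abbreviation that was read as cKO because the other columns are named WT.

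Within a population, with 1 library on each side, no test was possible and a 1.5-fold difference was used as a mark. In naive cells 1 of 36 synthetases passed it, Pars2, at 2.27 FPKM in WT and 4.06 in cKO, where 4.04% of all genes did. Summed from rows with a deposited symbol only, Pars2 was 2.254 and 2.605 FPKM in these libraries, short of the mark. Among fresh nTregs 1 of 36 passed it, Lars2, at 1286 and 555 FPKM, beside 3.86% of all genes. In stimulated nTregs it was again Lars2, at 1082 and 584 FPKM, beside 8.07% of all genes. No cytosolic enzyme reached the mark in any population. Their median cKO-minus-WT difference was 0.03 for naive cells and again 0.03 for fresh nTregs, and 0.12 after stimulation, where 15 of 20 lay above 0 with the deposited scaling, but the median was -0.03 under equal FPKM sums. Wars was the widest apart, at 45.7 FPKM in WT and 63.2 in cKO stimulated nTregs, and it was also higher in cKO in naive cells (16.1 and 19.8) and fresh nTregs (20.4 and 22.6). One of its 3 transcripts stood at 0.030 FPKM or less in the 3 WT libraries and in cKO naive cells but at 3.13 and 8.81 in the cKO fresh and stimulated libraries. How fragments were shared between these transcripts by the authors' estimate was not tested. Farsa was next, at 19.4 and 25.7 FPKM in stimulated nTregs.

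**Figure D5:**
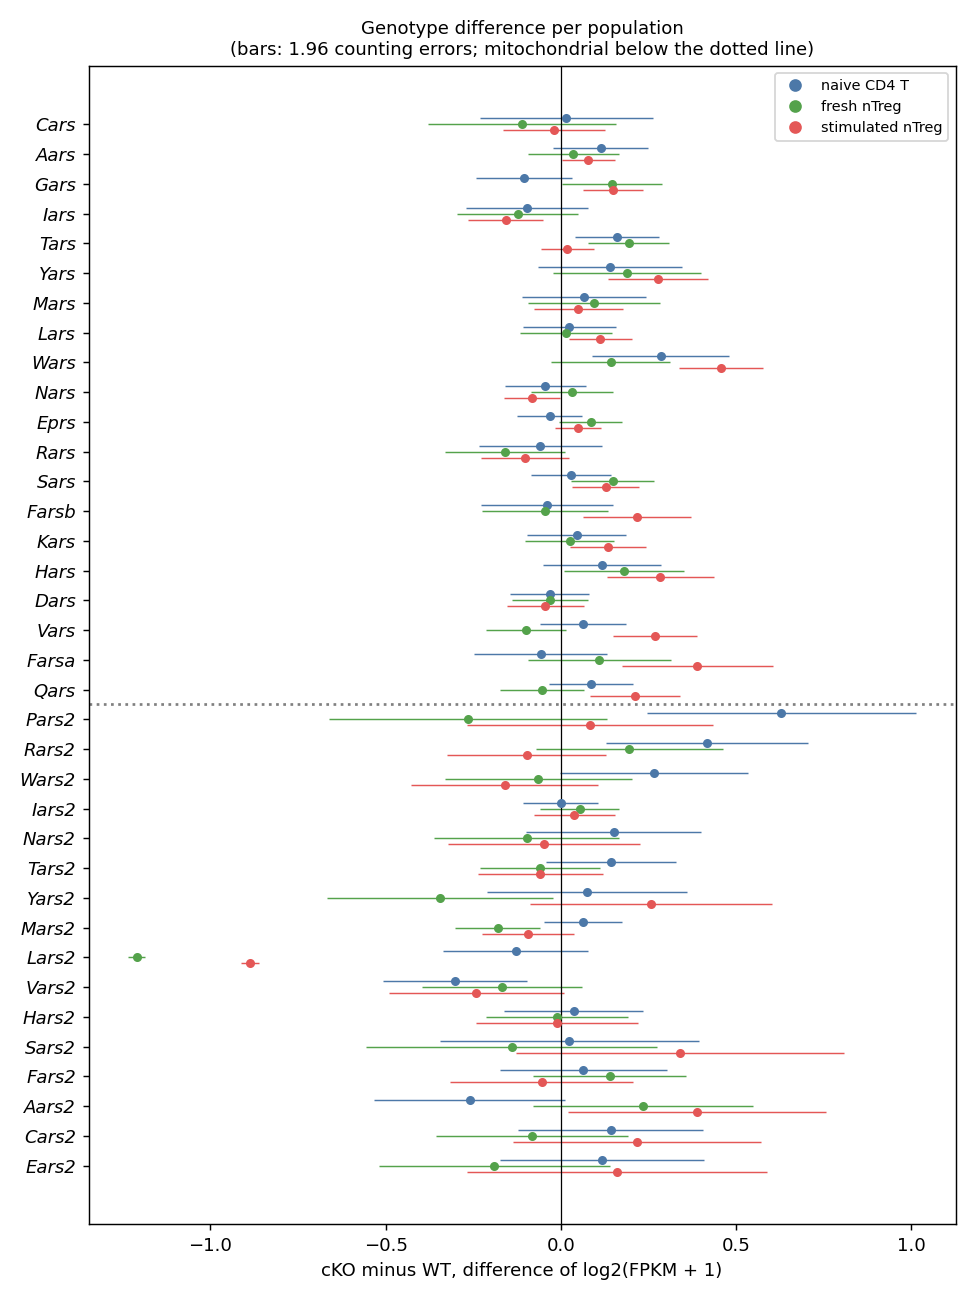
Difference of log2(FPKM + 1) between the cKO and the WT library of each population for the 36 synthetases, with bars of 1.96 counting errors estimated from depth, which leave out variation between mice. Cytosolic genes, above the dotted line, lie between -0.16 and 0.46 with the deposited scaling, and Lars2 lies apart at -1.21 in fresh and -0.89 in stimulated nTregs.

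The response to stimulation was set side by side in the 2 genotypes. For the cytosolic enzymes the median stimulated-minus-fresh difference was 1.13 in WT and 1.14 in cKO. Single cytosolic genes ran from -0.16 to 2.02 in WT and from 0.10 to 2.11 in cKO. Gene by gene, the cKO response minus the WT response had a median of 0.07 and ran from -0.17 (Tars) to 0.37 (Vars), beside 0.04 over all genes. For the mitochondrial enzymes the median was 0.07, from -0.29 (Rars2) to 0.60 (Yars2). Yars2 (tyrosine) went from 10.7 to 8.09 FPKM in WT and from 8.18 to 9.86 in cKO, the widest apart of the 36. With 1 library a group none of these differences has a test, and under equal FPKM sums both medians were -0.07.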

How the data were processed

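Total RNA of 6 libraries, 1 per group, was sequenced strand-specifically after depletion of ribosomal RNA, from 322 ng of RNA with 12 PCR cycles, per the labels' protocols. Per the submitters' processing notes, the tools (named without versions) were FastQC, TopHat on mm10, Cuffdiff and Cuffnorm. The authors deposited FPKM per RefSeq transcript, a unit without counts, and tests were therefore made on a log scale. The columns carry WT or an abbreviation, read as YAP cKO by elimination. The table holds 32860 rows for 32547 transcripts (165 were listed more than once, with identical values), and FPKM was summed per gene. The 36 genes hold 57 transcripts, of which 6 (of Farsb, Pars2 and Kars) carry no deposited symbol and were named through the reference.

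Differences were tested with limma 3.58.1 on log2(FPKM + 1), with a pseudocount of 1, keeping genes that reached an FPKM of 1 in 2 or more libraries, in an additive model of population and genotype with an intensity trend (2 residual and 4.027 prior degrees of freedom) and Benjamini-Hochberg adjustment. An adjusted p under 0.05 was called, "rose" meaning higher in the first-named group. Fold changes quoted with "-fold" are ratios of mean FPKM. Depth was estimated from the spacing of low FPKM values, of which 72.2% to 78.9% per library lay within 0.15 of a whole fragment, so counting errors are approximate and cover counting only. Members, lists, motifs and tests were chosen with earlier results of these data known. All 36 members could be named; other genes were named as each list's called extremes (except 1 not reported here) and all 3 scaffold proteins, with Gatb and Atf4 added after their values were seen. Alternatives were pseudocounts, filters, scalings, model terms and leaving out each library.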

Additional observations from a re-analysis of the deposited data

Results flagged for a closer look

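For 2 genes the 2 genotypes differed in the direction of their response to stimulation, each by more than 1.96 counting errors; with 1 library a group the difference was not tested. Vars was lower in the stimulated than in the fresh library in WT, at -0.1474 on the log2 scale, and higher in cKO, at 0.2217. Lars2 was at -0.2494 in WT and 0.0729 in cKO. The opposite directions hold with the deposited scaling and with equal upper quartiles, but not with equal FPKM sums (with or without short transcripts in the sum); with all transcripts in it, Vars was at 0.48 in WT and 0.71 in cKO and Lars2 at 0.40 and 0.57.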

How the results depend on the processing

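The 21 calls between stimulated and fresh nTregs ran from 17 to 22 when single libraries were left out, and the cytosolic share stayed at 16 rises or more in each setting run, except for 15 without the cKO fresh library. Under equal FPKM sums the cytosolic median was 1.75 and the mitochondrial one 0.46, Qars turned to 0.54 and Fars2 to 0.14. With transcripts under 300 nt left out of that sum Qars was 0.26. The cytosolic median was 1.20 and 1.09 with pseudocounts of 0.1 and 5, 1.24 with equal upper quartiles, 1.13 in WT alone and 1.14 in cKO alone. Between fresh nTregs and naive cells the 11 calls became 3 under equal FPKM sums, 5 with short transcripts left out of the sum and 4 with no filter on low values, and ran from 1 to 15 when single libraries were left out. There the cytosolic median was -0.11 with a pseudocount of 5, 0.051 under equal FPKM sums and -0.12 with equal upper quartiles, and the mitochondrial one -0.17 under equal FPKM sums. Between genotypes the count of 0 became 1 (Lars2) without either naive library, a range of 0 to 1. In stimulated nTregs the cytosolic genotype median was -0.0348 under equal FPKM sums and 0.0682 with equal upper quartiles, and the mitochondrial one -0.17 under equal FPKM sums. The medians of the genotype difference in response were then -0.0708 and -0.0672. Of 743 values of single genes under other settings, 83 lost a call, 13 gained one in the same direction, 2 sums moved, and the 3 given above changed sign with a call on 1 side. A further 18 changed sign with no call on either side, Vars, Farsa, Qars and Lars2 (stimulated against fresh) among them. The summed Farsb and Pars2 values from rows with a deposited symbol only were chosen after seeing the data, as were medians, sums and ratios without Lars2. The causes were not tested. No paired analysis was possible because the labels give no replicate numbers; the model with a genotype term already compares populations within each genotype.

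With 1 library a group, no value here carries an error between mice. No genotype difference within a population can be set against such an error, and the lowest genes, such as Sars2 and Pars2, stand on few fragments. FPKM cannot show a change in total RNA per cell.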
